A study of Sus scrofa with 18 samples.

Results

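The experiment described here is the response of the pig right ventricle to ischemia in the animals whose failure samples carry the label of 120 min of ischemia. These are pigs 6, 8, 9, 11, 12 and 13. Each gave 1 baseline sample and 1 failure sample of the right ventricular free wall, so 12 of the 18 arrays of the series were used, from 6 of its 9 pigs. The series studied acute right ventricular failure after ligation of coronary arteries, with total RNA hybridised to a porcine expression array. All pigs were of 1 mixed breed, with Hampshire, Yorkshire and Swedish Landrace in its background, and no transgene or drug is named in the labels. The baseline group (n = 6) is the same free wall sampled in the same animals under the label baseline, and the failure group (n = 6) is labelled both failure and ischemia of 120 min. Age, sex and weight are not given in the labels of these 12 samples, nor is the place of the biopsy relative to the ligated territory. Pigs 5, 10 and 14, whose labels define failure by a right atrial pressure above 20 mmHg instead of by time, were left out and serve only for the comparison at the end. No sham-operated animals enter the comparison, so ischemia, the hours that passed and the taking of a first biopsy cannot be told apart.

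Ischemic heart muscle loses oxidative energy supply within minutes. Cells that survive the first hours are known to switch on immediate early transcription factors, chaperones, cytokines and, when the wall is stretched, natriuretic peptides. A myocardial biopsy also holds whatever blood sits in its vessels, and maturing red cells carry abundant transcripts for globin chains and haem synthesis.

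The array values are log2 intensities, and a difference of 1 is a change of 2-fold. The 23999 tested probe sets spanned 2.08 to 15.17, and array medians lay between 5.58 and 5.65. The ventricular part of the tissue label held, and its side and place were not checked. Of 9 ventricular myocyte transcripts looked at, 9 lay at or above the 99.8th percentile of all probe sets. Among them were the myosin genes MYL2 (baseline mean 14.76) and MYH7 (14.95) and the troponin gene TNNI3 (14.74). Each pig's baseline array resembled its own failure array most, with same-pig correlations of 0.413 to 0.575 after group means were removed, and failure was therefore compared with baseline within pigs.

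Failure differed from baseline at 3 of 23999 probe sets (0.0125%), all lower in failure, in a limma fit with pig as a block at a Benjamini-Hochberg adjusted p under 0.05. ALAS2 and AHSP, genes of haem and haemoglobin production in red cell precursors, fell 2.68-fold and 2.79-fold. The other probe set is 1 of the 9 for B2M, the light chain of class I histocompatibility molecules. No probe set rose past the threshold. All 3 belong to the probe sets deposited with at most 2 decimals, described under other observations. With the pig as a random block none of the 3 passed (limma adjusted p = 0.377 for ALAS2, 0.390 for AHSP and 0.127 for the B2M probe set), and without the pig block or without variance moderation the count was also 0. Without pig 8 the count was 11, of which 7 were higher in failure. At an unadjusted p under 0.05 there were 1429 probe sets (5.95%), against 1200 if nothing changed. Among the 6765 genes named by a probe set, 2 passed (0.0296%), 165 had an unadjusted p under 0.05 with a higher mean in failure (2.44%) and 168 with a lower one (2.48%). The median change over all genes was 0.00 and the median absolute change 0.058, while the median SD of the change over the 6 pigs was 0.196.

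ALAS2 encodes the erythroid form of the enzyme that starts haem synthesis. Its level ran from 7.71 through a median of 8.42 to 9.88 at baseline, and from 6.18 through 7.10 to 8.06 in failure. The groups overlapped, because pig 8 in failure was still above 3 pigs at baseline, but the level was lower in failure in 6 of 6 pigs. The change was -1.42 (SE 0.11, 95% interval -1.66 to -1.18, limma adjusted p = 0.000646). By pig it was -1.64 in pig 6, -1.82 in pig 8, -1.25 in pig 9, -1.63 in pig 11, -1.20 in pig 12 and -0.99 in pig 13. AHSP encodes the chaperone that keeps free alpha globin soluble. Its baseline levels were 6.05, 6.65 and 8.62 (lowest, median, highest) and its failure levels 4.39, 5.37 and 6.79, again overlapping between groups and lower in 6 of 6 pigs. Its change was -1.48 (SE 0.17, limma adjusted p = 0.0277), from -0.81 in pig 9 to -2.14 in pig 6. The AHSP call did not hold when pig 6, 8, 11 or 12 was left out (adjusted p = 0.102, 0.0501, 0.181 and 0.0648), whereas its change stayed between -1.54 and -1.35 in those fits.

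Other red cell genes were lower without passing the test. HBM, which encodes the mu globin chain, was lower in 6 of 6 pigs, with 7.0, 7.61 and 9.17 at baseline and 6.23, 6.51 and 7.45 in failure. Its change was -1.0 (SE 0.13, limma adjusted p = 0.0538). FAM46C, a noncanonical poly(A) polymerase that is abundant in late erythroid cells, had 5.39, 6.23 and 7.55 at baseline against 5.0, 5.41 and 6.38 in failure. Its change was -0.82 (SE 0.11, adjusted p = 0.0719), in 6 of 6 pigs, whereas its other, dimmer probe set gave 0.01. HBE1, the embryonic epsilon globin gene, lay near the floor of the array (mean 3.56) with a change of -0.61 (adjusted p = 0.100). In contrast, HBB, the adult beta globin gene, had 7.69, 8.17 and 8.73 at baseline and 7.37, 8.0 and 8.29 in failure. Its change of -0.29 (SE 0.14, adjusted p = 0.836) was not past the threshold, and HBB was higher in failure in pigs 9 and 11. SLC25A37, the mitochondrial iron importer, KLF1, the erythroid master transcription factor, and BPGM, the enzyme for 2,3-bisphosphoglycerate, had changes of 0.00, 0.04 and -0.12. These 3 genes and HBE1 are named to complete the list, after their values were seen. Pig 8 had the highest ALAS2, AHSP, HBM and FAM46C level in both groups.

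Of the 6765 genes, 2 passed the threshold (0.0296%), and both are in the whole red cell marker list. This list had 9 measured genes of 19 listed, of which 2 fell past the threshold and 0 rose. Its median change was -0.61, against 0.00 over all genes. That median is the value of HBE1, which lies near the floor, and it was -0.40 when the probe sets of a gene were averaged. In the list, 5 of its 9 genes were lower in 6 of 6 pigs, against 1.58% of all genes. The list was chosen with earlier results of these data known, so this share is a description and no independent support. The mean level of the 9 markers was 6.49 to 7.49 at baseline and 5.93 to 6.63 in failure, lower in 6 of 6 pigs by 0.63 ± 0.16 (SD, n = 6). In whole tissue, fewer cells of a type and less RNA per cell cannot be told apart. The volume of blood left in the samples was not measured, and its part in the result was not tested. The lines for each pig show the spread of red cell genes beside the probe sets for B2M, OAZ1 and FST.

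**Figure D1:**
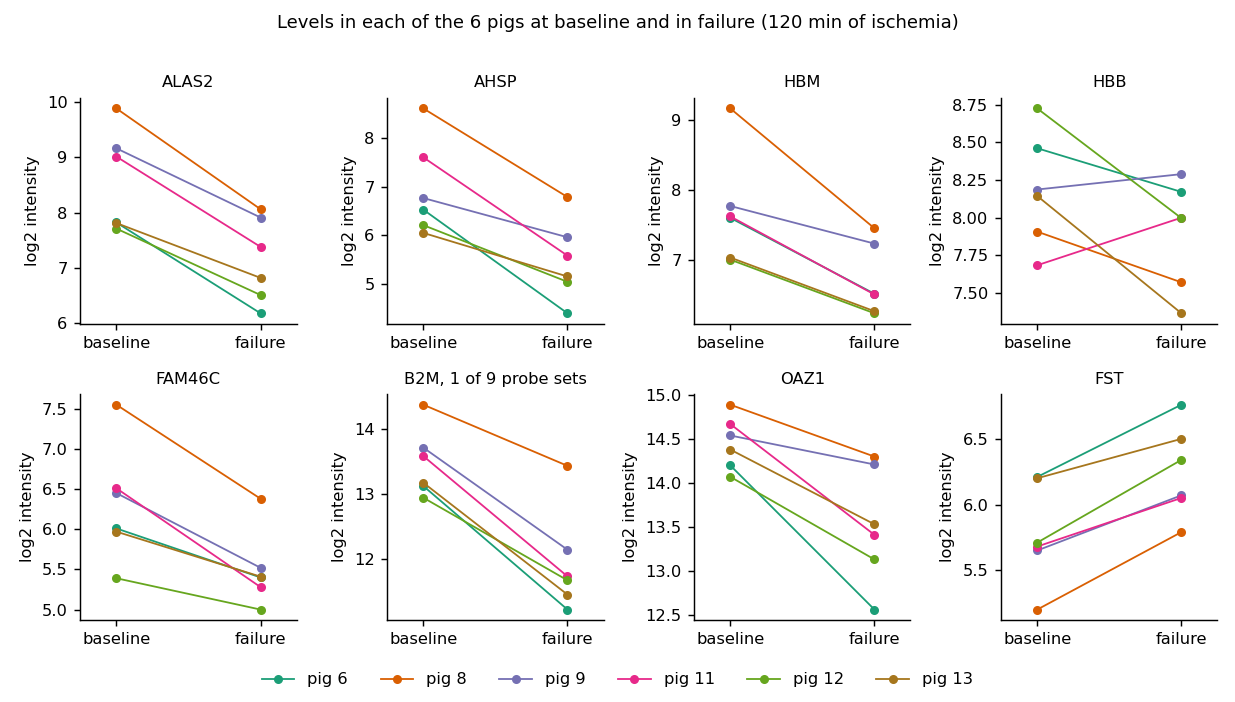
Log2 intensity (vertical axis, own scale in each panel) of 8 probe sets at baseline and in failure; each line joins the 2 samples of 1 pig. ALAS2, AHSP, HBM, FAM46C, OAZ1 and the B2M probe set slope down in 6 of 6 pigs, FST slopes up in 6 of 6, and HBB is higher in failure in pigs 9 and 11.

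B2M and OAZ1 each gave an answer that depended on the probe set. The B2M probe set that fell is bright (mean 12.71) and ran at 12.94, 13.38 and 14.37 at baseline against 11.22, 11.70 and 13.43 in failure. Its change was -1.54 (SE 0.12, limma adjusted p = 0.000646), lower in 6 of 6 pigs, from -0.94 in pig 8 to -1.90 in pig 6. For the remaining 8 probe sets of B2M the change lay between -0.26 and 0.16 (median -0.02), over mean levels of 5.71 to 13.04. A lower B2M transcript level as a whole is thus not what these 9 probe sets show. OAZ1 encodes antizyme, which marks ornithine decarboxylase for degradation. Its brighter probe set (mean 13.99) had 14.07, 14.46 and 14.89 at baseline and 12.56, 13.47 and 14.30 in failure, a change of -0.94 (SE 0.14, adjusted p = 0.0982) that was negative in 6 of 6 pigs. The other OAZ1 probe set gave -0.16.

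**Figure D2:**
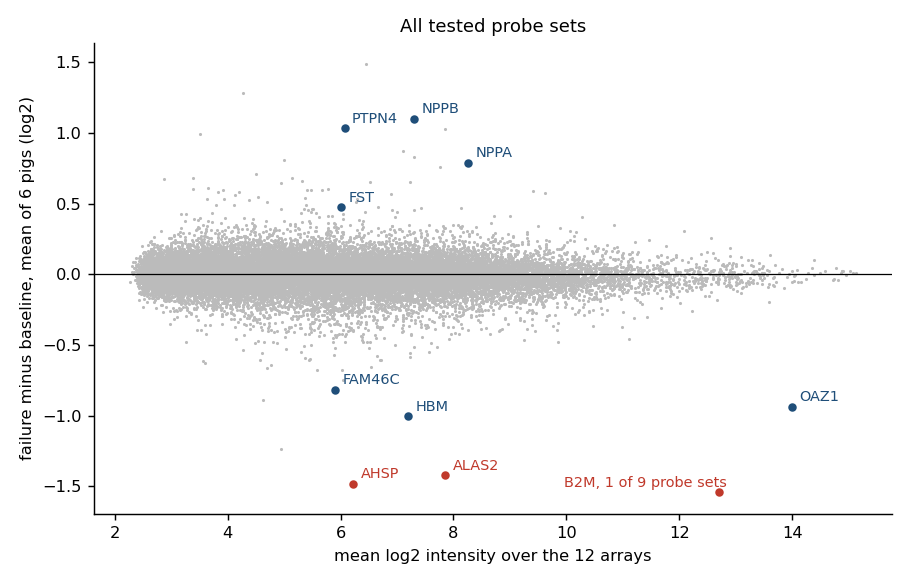
Mean change (failure minus baseline over 6 pigs, log2) of each tested probe set against its mean log2 intensity over the 12 arrays. Red marks the 3 probe sets past the threshold (ALAS2 at -1.42, AHSP at -1.48, B2M at -1.54); blue marks named probe sets that did not pass.

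Among genes taken by their brightest probe set, none outside the red cell list passed the test, and those with 1 direction in 6 of 6 pigs had mean changes under 2-fold. Over all genes, 110 (1.63%) were higher in 6 of 6 pigs and 107 (1.58%) lower. Equal odds of either sign in each pig would give a share of 0.0313 for both directions together, so these counts are near chance. The genes of this paragraph and the next were picked partly for 1 direction in 6 of 6 pigs, so that trait is no support for them. Among the genes named in this paragraph, FST varied least between pigs. FST encodes follistatin, the secreted trap for activin and myostatin. It had 5.20, 5.70 and 6.21 at baseline and 5.79, 6.21 and 6.76 in failure, a change of 0.48 (SE 0.07, adjusted p = 0.0982) with pigs between 0.30 and 0.63. Its other probe set gave 0.26. PTX3, a soluble pattern recognition protein of the acute phase, had the highest mean change of these genes at 0.83 (SE 0.17, adjusted p = 0.374). It ranged from 0.03 in pig 6 to 1.61 in pig 9 on a baseline that itself spanned 5.36 to 10.33. CH25H, which makes 25-hydroxycholesterol, had a change of 0.46 (adjusted p = 0.374). The second probe sets of PTX3 and CH25H gave 0.21 and 0.10. PAPSS2, which supplies the sulfate donor for proteoglycans, had 0.52 (adjusted p = 0.374), and the periplakin gene PPL had 0.31. UAP1, which makes UDP-N-acetylglucosamine, and the lipase gene ABHD4 each had 0.29. The second ABHD4 probe set, which is dim (mean 4.16), gave 0.04.

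Other genes were lower in 6 of 6 pigs without passing the test. PPP1R16B, a targeting subunit of protein phosphatase 1 that is abundant in endothelium, had 7.15, 7.61 and 7.83 at baseline and 6.44, 6.89 and 7.52 in failure. Its change was -0.56 (SE 0.11, limma adjusted p = 0.374), and pig 9 stood apart at -1.21. GNLY, which encodes the granulysin of cytotoxic lymphocytes, had a change of -0.50 (adjusted p = 0.374). CAPZA2, an actin capping subunit, had -0.37, and its second probe set gave 0.16. CD55, which shields cells from complement, had -0.35 on 1 probe set while its other 4 lay between -0.15 and 0.06. TTC3, a ubiquitin ligase gene, had -0.34 with 0.08 on its second probe set. EPDR1 and UBE2QL1 had -0.34 and -0.35.

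A complete separation of the groups was rare. Baseline and failure levels did not overlap for 3 genes that were higher (0.0443% of genes) and 2 that were lower (0.0296%), and these 5 are named after their values were seen. EHMT2, a histone methyltransferase gene, had 7.34 to 7.37 at baseline and 7.42 to 7.56 in failure (change 0.12). The dim genes TUFT1 and WAP had changes of 0.37 and 0.28, with 4.17 to 4.40 against 4.42 to 4.81 for TUFT1 and 4.34 to 4.52 against 4.54 to 4.93 for WAP. ADSS, a purine synthesis enzyme gene, and ZNF566, a zinc finger gene, had -0.17 and -0.22, and none of the 5 passed the test (adjusted p from 0.461 to 0.868). A mean change of 2-fold or more was found for 3 genes that were lower (0.0443%), which are ALAS2, AHSP and HBM, and for 2 that were higher (0.0296%), NPPB and PTPN4.

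Wall stress genes were higher on average, but the pigs disagreed. Of 10 measured genes in this list 0 passed the test, 9 had a higher mean in failure, and the median change was 0.18. NPPB, which encodes B-type natriuretic peptide, had 6.09, 6.71 and 7.71 at baseline and 6.01, 7.91 and 10.04 in failure. Its mean change was 1.10 (SE 0.35, adjusted p = 0.698). It was 3.05 in pig 8, 1.86 in pig 11, 1.42 in pig 9 and 0.67 in pig 13, and near or below 0 in pigs 12 (-0.08) and 6 (-0.31). NPPA, the atrial natriuretic peptide gene, spanned 5.77 to 10.53 at baseline (median 7.76) and 7.18 to 9.59 in failure (median 8.93). Its change of 0.79 (SE 0.36, adjusted p = 0.832) was carried by pigs 12 (2.69) and 6 (1.64), the pigs without a higher NPPB, and was -1.13 in pig 9. ANKRD1, a titin-associated stretch sensor, had 12.50, 12.75 and 13.19 at baseline and 12.24, 12.66 and 13.62 in failure, with a change of 0.06 (3 pigs higher, 3 lower). XIRP1, an actin-binding protein of the intercalated disc, had 0.31 (5 of 6 pigs higher).

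Among 19 measured sarcomere and Z-disc genes 0 passed and the median change was -0.01. NEBL, the gene of the Z-disc protein nebulette, had 6.39, 6.91 and 7.36 at baseline and 7.13, 7.61 and 7.79 in failure. It was higher in 6 of 6 pigs, with a change of 0.65 (SE 0.14, adjusted p = 0.426) that ran from 0.10 in pig 8 to 1.20 in pig 9. The abundant thick and thin filament genes did not stand out, with TPM1 at -0.08. The other 2 TPM1 probe sets gave 0.05 and 0.18. In the calcium cycling list, 0 of 14 genes passed, 11 had a lower mean, and the median change was -0.06. PLN, the brake on the sarcoplasmic calcium pump, had 13.17, 13.41 and 13.64 at baseline and 13.13, 13.32 and 13.70 in failure (change -0.06). The pump gene ATP2A2 had 13.74, 14.10 and 14.19 against 13.76, 14.05 and 14.14 (change -0.05). Its other 3 probe sets gave 0.00 to 0.24. The release channel gene RYR2 had a change of -0.26 (5 of 6 pigs lower), and SLN, a second pump inhibitor, had 0.44, with 1.16 in pig 8 and 1.23 in pig 12. Of 11 measured ion channel and gap junction genes 0 passed (median -0.04). The atrial potassium channel gene KCNJ5 had -0.36 (4 of 6 pigs lower), with pig 8 lowest at -1.52.

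The immediate early genes, the first transcription factors switched on by stress, had no common direction. Of 5 measured AP-1 family genes and 14 further early genes 0 passed, with median changes of -0.06 and -0.07. FOS, the AP-1 subunit, was already high at baseline in most pigs (8.43, 11.49 and 12.35) and had 9.47, 10.59 and 12.98 in failure. Its change was -0.06 (SE 0.39), positive in pigs 12 (1.77), 11 (1.03) and 6 (0.64), and negative in pigs 9 (-0.89), 13 (-1.07) and 8 (-1.84). EGR1, a zinc finger factor of the same response, had 8.99, 10.45 and 11.62 at baseline and 8.86, 10.03 and 11.10 in failure. Its change of -0.17 (SE 0.28) was negative in the same 3 pigs as for FOS. ATF3, a stress-induced repressor, spanned 7.83 to 12.20 at baseline and 6.91 to 12.65 in failure, with a change of -0.20. MYC, the growth regulator, had 7.58, 8.38 and 9.52 against 7.71, 8.46 and 9.79 (change 0.10). NR4A3, an orphan nuclear receptor, was lower in 5 of 6 pigs (change -0.40, adjusted p = 0.698), and DUSP1, which inactivates stress kinases, had 0.35. FOS and EGR1 spanned a wider range of levels at baseline than in failure, and ATF3 a narrower one.

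Inflammatory mediators differed widely between pigs. Of 20 measured cytokine, chemokine and adhesion genes 0 passed, 11 had a higher and 9 a lower mean, and the median change was 0.07. IL6, the main driver of the acute phase response, had 3.70, 5.99 and 9.37 at baseline and 3.89, 5.36 and 9.21 in failure. Its change was 0.08 ± 1.93 (SD, n = 6), the widest spread of any of the 6765 genes. It was 3.0 in pig 9, 1.02 in pig 12, close to 0 in pigs 13 (-0.05), 6 (-0.16) and 11 (-0.38), and -2.92 in pig 8. The neutrophil chemokine gene CXCL8 had 2.78, 4.06 and 6.44 at baseline and 2.87, 3.90 and 6.55 in failure (change 0.27). PTGS2, the inducible cyclooxygenase gene, had 3.63, 4.70 and 6.31 against 3.93, 4.35 and 6.58 (change 0.27). Pig 9 was highest and pig 8 lowest for CXCL8 (2.43 and -1.50) and PTGS2 (1.57 and -1.50). CCL2, the monocyte chemokine gene, had 7.81, 9.12 and 11.68 at baseline and 9.08, 9.14 and 12.02 in failure. It was higher in every pig but pig 8 (-0.85), with a change of 0.58 (SE 0.23, adjusted p = 0.793). SELP, the platelet and endothelial selectin gene, had 0.46 and VCAM1, an endothelial adhesion molecule gene, 0.30.

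**Figure D3:**
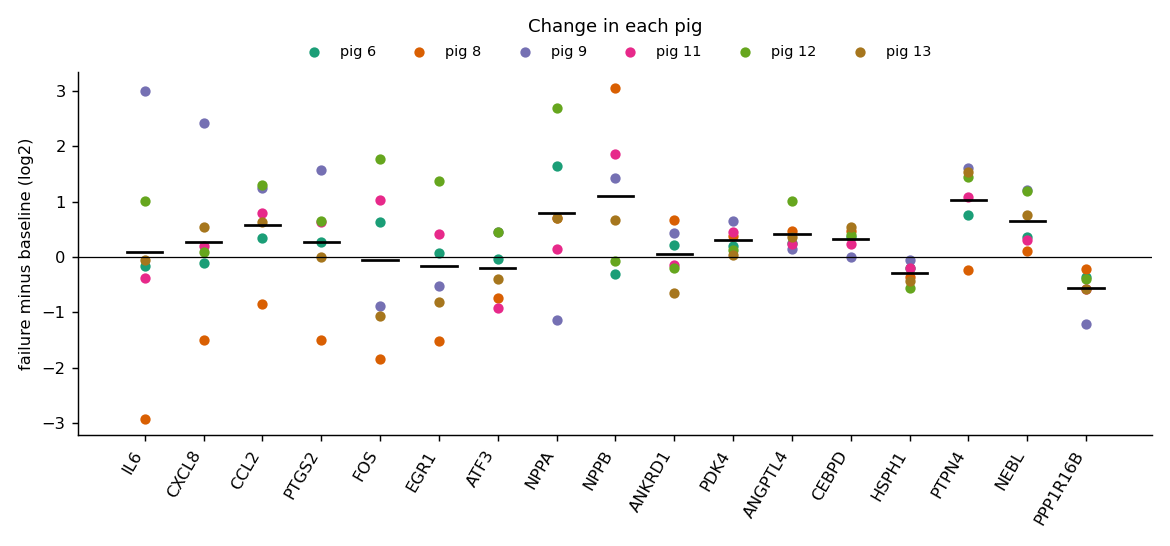
Change of 17 genes in each of the 6 pigs (points, failure minus baseline, log2); the black bar is the mean. IL6 runs from -2.92 (pig 8) to 3.0 (pig 9) about a mean near 0, while PDK4, ANGPTL4 and NEBL are above 0 in 6 of 6 pigs and HSPH1 and PPP1R16B below 0 in 6 of 6.

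Stress programmes tied to protein folding and low oxygen were close to the median of all genes. Of 16 cytosolic chaperone genes 0 passed and the median change was 0.00. HSPH1, a large chaperone that works with HSP70, was nevertheless lower in 6 of 6 pigs, with 7.67, 8.45 and 8.69 at baseline and 7.24, 8.14 and 8.39 in failure (change -0.30, SE 0.08, adjusted p = 0.630). DNAJA1, an HSP40 partner, had -0.18 and HSPA8, the constitutive HSP70, -0.13. In the endoplasmic reticulum stress list, 0 of 13 genes passed (median 0.02). ATF4, the translation-controlled factor of that response, had 0.23 in 6 of 6 pigs. Its second probe set, near the floor (mean 3.77), gave -0.15. Of 15 measured targets of hypoxia-inducible factor 0 passed (median -0.01). VEGFA, the endothelial growth factor, had 9.96, 10.08 and 10.57 at baseline and 10.16, 10.23 and 10.32 in failure (change 0.08). ADM, the vasodilator adrenomedullin, had 6.83, 7.78 and 8.63 against 7.42, 7.71 and 8.5 (change 0.10), and HMOX1, haem oxygenase, had 6.38, 7.09 and 8.04 against 6.89, 7.28 and 8.51 (change 0.17). Glycolytic genes had a median of -0.03 (0 of 17 passed). Of 13 p53 and growth arrest genes 11 had a higher mean (median 0.08) and 0 passed. Among them CDKN1A, the cell cycle inhibitor p21, had 7.94, 8.40 and 8.93 against 7.99, 8.40 and 9.32 (change 0.08).

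Fuel genes included 3 with small differences of 1 sign. In the fuel switch list, 0 of 14 genes passed and the median was 0.04, but PLIN2, ANGPTL4 and PDK4 were higher in 6 of 6 pigs. PLIN2 coats lipid droplets and had a change of 0.29 (SE 0.07, adjusted p = 0.508). ANGPTL4, an inhibitor of lipoprotein lipase, had 6.15, 6.64 and 7.85 at baseline and 6.53, 7.11 and 8.10 in failure (change 0.41, SE 0.11, adjusted p = 0.566). PDK4, which shuts the pyruvate dehydrogenase complex, had 11.27, 11.94 and 12.83 against 11.40, 12.22 and 12.87 (change 0.31, SE 0.09, adjusted p = 0.656). The second probe sets of ANGPTL4 and PDK4 gave 0.08 and 0.16. PPARGC1A, the coactivator of mitochondrial biogenesis, had 8.78, 9.71 and 10.03 against 9.04, 9.37 and 9.82 (change -0.17). Among fatty acid oxidation and tricarboxylic acid cycle genes, 25 of 29 had a lower mean (median -0.07), and among respiratory chain genes 19 of 28 (median -0.05), where 48.9% of all genes did. None of these genes passed.

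The glucocorticoid target list held several of the same fuel genes. Of its 17 measured genes 0 passed, 13 had a higher mean, and the median change was 0.12. CEBPD, ANGPTL4, PDK4, KLF9 and FOXO3 were higher in 6 of 6 pigs, 5 of 17 against 1.63% of all genes. This list was also chosen with earlier results of these data known. CEBPD, an acute phase transcription factor, had the smallest p of the list, with 9.21, 9.66 and 10.34 at baseline and 9.60, 10.01 and 10.70 in failure (change 0.33, SE 0.08, adjusted p = 0.477). KLF9, named here after its value was seen, had 0.15, and FOXO3, a dim probe set, 0.12. Cortisol was not measured, and its part was not tested.

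Matrix and clotting genes mostly had higher means in failure. In the matrix list 0 of 28 genes passed, 23 had a higher mean, and the median was 0.10. TIMP1, an inhibitor of matrix proteases, had 0.33 (5 of 6 pigs higher). TNC, which encodes the repair matrix protein tenascin C, had 0.66 (5 of 6 pigs higher), with pig 8 highest at 2.45 and pig 6 next at 0.82. The list's median by pig was 0.12, 0.29, -0.16, 0.02, 0.22 and 0.11 in pigs 6, 8, 9, 11, 12 and 13. The median of the fibroblast markers, a list that shares COL1A2, COL3A1, DCN, LUM and POSTN with the matrix list, was 0.09, 0.59, -0.14, -0.06, 0.31 and 0.05 in the same pigs, and the part of fibroblast content in the matrix list was not tested. In the clotting list 0 of 14 genes passed, 12 had a higher mean, and the median was 0.15. PROS1, the cofactor protein S of anticoagulation, was higher in 6 of 6 pigs with 0.24 (adjusted p = 0.673). EDN1, the vasoconstrictor endothelin 1 gene, had 0.30 in 6 of 6 pigs. In the growth factor list 0 of 18 passed (median 0.10). TGFB3 had 0.20 in 6 of 6 pigs and HEY2, a Notch target, had -0.35. The other probe sets, all dimmer, gave -0.10 for TGFB3 and -0.01 and 0.09 for HEY2.

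Antiviral and antigen presentation genes mostly had lower means. Of 21 interferon-stimulated genes 0 passed, 15 had a lower mean, and the median was -0.08. PSMB8, an immunoproteasome subunit gene, had -0.25 and IFIT3, an antiviral effector gene, -0.20, each in 6 of 6 pigs. RSAD2, another antiviral effector gene, had -0.36, with pig 12 alone higher (0.35). Of 17 histocompatibility genes 14 had a lower mean (median -0.04), none past the threshold. TAP1, the peptide transporter, had -0.20, but its other 2 probe sets gave 0.03 and 0.17.

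Markers of other cells had small average differences. The mean marker level had a change of -0.05 ± 0.07 (SD, n = 6 for each) for ventricular myocytes, 0.22 ± 0.45 for atrial myocytes, 0.02 ± 0.24 for macrophages, 0.04 ± 0.20 for endothelium, 0.05 ± 0.22 for smooth muscle and 0.14 ± 0.24 for fibroblasts. Lymphocyte markers had -0.11 ± 0.12, lower in 5 of 6 pigs, but 0 of the 12 genes lay above the median intensity. Neutrophil and platelet markers had -0.04 ± 0.08, lower in 5 of 6 pigs, with 4 of 9 genes under the 25th percentile. Epicardial markers were higher in 6 of 6 pigs by 0.16 ± 0.14, from levels of 4.38 to 4.55 at baseline to 4.48 to 4.88 in failure, on 5 genes of which 1 lay above the median intensity. Adipocyte and skeletal muscle markers had 0.10 ± 0.10 and 0.04 ± 0.05. The part of tissue composition in any of the changes above was not tested.

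The pigs differed in what changed. Across the 6765 genes, the changes of 2 pigs correlated between -0.285 (pigs 9 and 12) and 0.419 (pigs 12 and 13), with a median of 0.053 over 15 pairs, and genes are not independent replicates. The changes of pig 9 had a weak negative correlation with the mean of the other 5 pigs (r = -0.22), though r was 0.06 with pig 11. Each of the others had r between 0.05 and 0.22 with the mean of its other 5. Pig 9 had 17 genes at least 2-fold higher and 52 at least 2-fold lower, pig 8 had 24 and 34, and pig 11 had 10 and 10. In pig 12 the counts were 18 and 3, in pig 6 they were 10 and 17, and in pig 13 they were 3 and 11.

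In pig 8, inflammatory transcripts were lower in failure and several matrix transcripts higher. Its inflammatory list had a median of -1.13 and its early response list -0.79, with IL6 at -2.92. The genes SELE (an endothelial selectin) at -3.04 and CXCL2 (a neutrophil chemokine) at -2.84 were picked after values were seen. Its NPPB reached 3.05, its TNC 2.45, and, also picked after values were seen, the matrix gene CILP 2.88 and the osteopontin gene SPP1 2.50. Its fibroblast markers (median 0.59) and macrophage markers (median 0.43) had the highest change of the 6 pigs. Pig 9 had the highest inflammatory median at 0.59, with SELE at 2.68, but the lowest medians for smooth muscle (-0.44) and endothelial markers (-0.30) and for the matrix list (-0.16). Its atrial myosin light chain gene MYL4, also picked after values were seen, was at -2.0. Pig 12 led the early response list (0.57), and pig 6 led the clotting list (0.37).

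**Figure D4:**
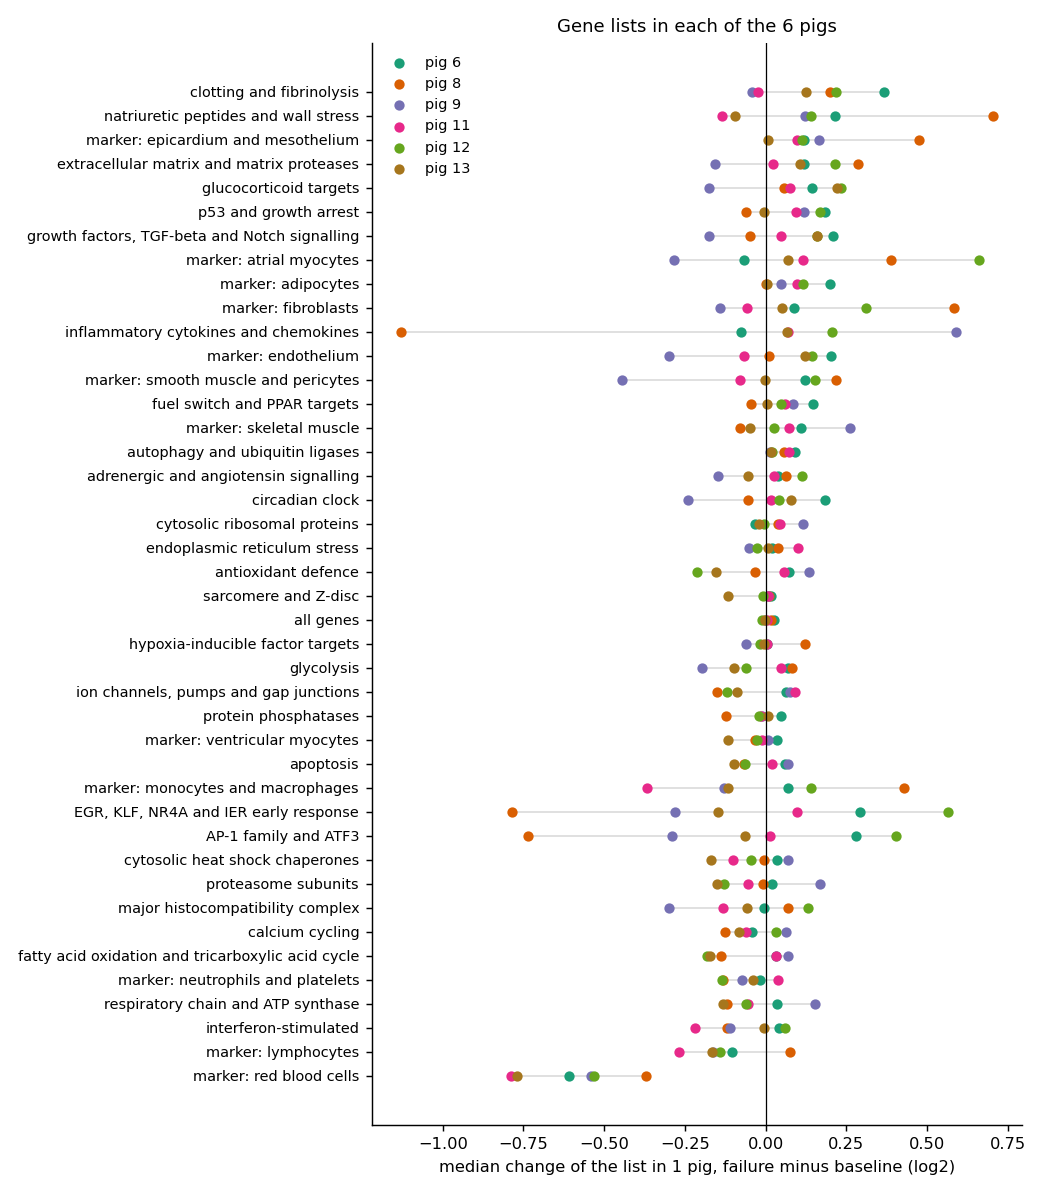
Median change (failure minus baseline, log2) of each gene list in each of the 6 pigs, ordered by the middle of the 6 values; grey lines span the pigs. The red cell list is at or below -0.37 in 6 of 6 pigs, whereas the inflammatory list runs from -1.13 (pig 8) to 0.59 (pig 9) and the early response list from -0.79 (pig 8) to 0.57 (pig 12).

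RNA integrity also varied between pigs. The GAPDH 3 prime minus 5 prime difference, which grows when RNA is degraded, was 0.61 to 1.49 at baseline and 0.48 to 2.17 in failure. Its change was 0.25 ± 0.56 (SD, n = 6), with p = 0.344 in a two-sided exact permutation test over the signs of the 6 changes, which cannot give less than 0.0313. The same difference for ACTB had a change of 0.09 ± 0.55 (SD, n = 6; 5 of 6 pigs higher, p = 0.719 in the same exact permutation test), with 0.50 in pig 8, 0.54 in pig 13 and -0.96 in pig 9. By pig the GAPDH change was 1.18 in pig 13, 0.55 in pig 12, 0.25 in pig 8, 0.07 in pig 6, -0.09 in pig 11 and -0.44 in pig 9. The fatty acid oxidation and tricarboxylic acid cycle list had medians of -0.17, -0.18, -0.14, 0.03, 0.03 and 0.07 in those pigs in the same order. The part of RNA integrity in that list was not tested. With the GAPDH difference as a covariate, ALAS2 and the B2M probe set still passed, and AHSP had -1.56 with a limma adjusted p of 0.0517.

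Pigs 5, 10 and 14, defined by right atrial pressure, were then set beside the 6 pigs. The difference in response passed at 0 of 23999 probe sets (0%) in a limma fit over 18 arrays with pig as a block. The lowest adjusted p was 0.866, and 1361 probe sets (5.67%) had an unadjusted p under 0.05. ALAS2 had a change of -0.96 ± 0.76 (SD, n = 3) in the 3 pigs, and the 6 pigs minus the 3 pigs gave -0.46 (95% interval -1.04 to 0.12). AHSP had -0.62 ± 0.51 there, a difference of -0.86 (interval -1.53 to -0.20, adjusted p = 0.866). PTPN4, a tyrosine phosphatase gene, had 5.06, 5.55 and 6.05 at baseline in the 6 pigs and 5.21, 6.71 and 7.59 in failure. Its change was 1.04 (SE 0.20, adjusted p = 0.338) with pig 8 alone lower (-0.23), and it was 1.02 ± 0.62 in the 3 pigs. Its other 2 probe sets, which are dimmer (means 4.98 and 2.70), gave 0.30 and 0.04 in the 6 pigs. Without pig 8, the only pig with a lower level, the PTPN4 change was 1.29 with a limma adjusted p of 0.00659. PTPN4 passed in only 1 of the 6 fits that left out 1 pig, and in 2 of 22 alternatives in all. NEBL had 0.77 ± 0.29 and PPP1R16B -0.67 ± 0.12 in the 3 pigs, beside 0.65 and -0.56 in the 6. PTPN4, NEBL and PPP1R16B were put on the fixed list with earlier results of these data known. Their likeness in both sets is therefore no independent support. NPPB ran the other way, at -1.28 ± 1.75 in the 3 pigs, and this difference did not pass either (adjusted p = 0.866).

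The 5 genes with the smallest p for the difference are given as values. DDX60, an antiviral helicase gene, had -0.05 in the 6 pigs and -0.91 ± 0.16 (SD, n = 3) in the 3. The interferon list had a median of -0.08 in the 6 pigs and -0.34 in the 3. The 3 pigs disagreed, with list medians of 0.10 in pig 5, -0.77 in pig 10 and -0.34 in pig 14. In the 6 pigs the list medians ran from -0.22 to 0.06. The cadherin-related gene CDHR4 had 0.10 against -0.48, the ghrelin gene GHRL -0.15 against 0.44, the matrilysin gene MMP7 -0.22 against 0.33 and the helicase gene DDX11 0.14 against -0.49. All 5 had an adjusted p of 0.866.

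**Figure D5:**
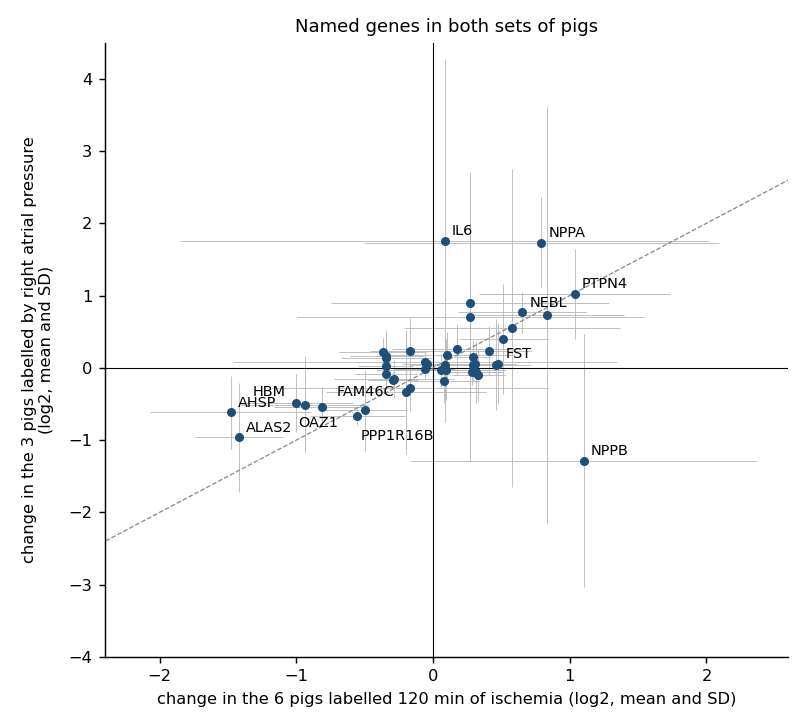
Mean change with SD (log2) of named genes in the 6 pigs labelled 120 min of ischemia (horizontal) and in the 3 pigs labelled by right atrial pressure (vertical); the dashed line marks equal change. ALAS2, AHSP, PTPN4 and NEBL have the same sign in both, among genes chosen with earlier results of these data known. Their probe sets are among those deposited with at most 2 decimals. NPPB lies at 1.10 against -1.28, and the SD bars of IL6 and NPPB cross 0 in both sets.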

How the data were processed

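Total RNA from 18 right ventricular samples was labelled with a 3 prime in vitro transcription kit and hybridised to Affymetrix porcine arrays. The authors deposited 1 table of log2 intensities for 24123 probe sets; it was made with Partek, per the submitters' processing notes. How background was corrected, arrays were normalized and probes were summarized is not given in the sources used here. Of these, 124 control probe sets were left out. Platform annotation gave 1 gene symbol to 10069 of the 23999 tested probe sets, several to 198 and none to 13732, and 9989 of the named probe sets matched a gene ID of RefSeq's table. A gene was represented by its brightest probe set (6765 genes, 2261 with more than 1 probe set). No filter on low intensity was set in the main test. No 2 arrays held identical values, and all pairs correlated between 0.958 and 0.995.

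Failure was compared with baseline in R 4.3.3 with limma 3.58.1 (lmFit, eBayes) on the 12 arrays with the pig as a block, two-sided, with Benjamini-Hochberg adjustment over 23999 probe sets and a threshold of 0.05. Intervals are at 95% confidence. The pig number in the labels pairs the samples; 6 of 6 baseline arrays correlated best with the failure array of the same pig. Labels name separate pigs, with 1 array per sample and time; the number of arrays limits the precision. The difference between the sets of pigs was the interaction over 18 arrays. Genes named are those past the threshold; per direction the 12 with the largest change among those above the median intensity (5.61), of 1 direction in 6 of 6 pigs and with an unadjusted p under 0.01; up to 3 members of each list by p; the 5 with the smallest p of the difference; and 30 fixed genes, of which 29 were measured (GDF15 was not). The members, lists and tests were chosen with earlier results of these data known. Exceptions are named where they occur.

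Alternatives changed the block, scaling, filter on dim probe sets, probe sets per gene, variance model, RNA integrity covariate, rounding, and the arrays or pigs in the fit. Both tests were checked on simulated data with known changes before use. The main test recovered 34% of planted 1.25-fold changes, 94% of 1.5-fold and 100% of 2-fold ones, with 9 false calls. For the difference between the sets of pigs, recovery was 0%, 34% and 96% at the same folds, with 4 false calls.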

Additional observations from a re-analysis of the deposited data

Results flagged for a closer look

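Of 88 sets of 6 pig values looked at for a pig standing apart (Dixon's test at the 95% level), 5 had one, where chance alone gives about 4.4 (1 in 20). The CH25H change was 0.95 in pig 12 against 0.21 to 0.45 in the other 5 pigs. The PPP1R16B change was -1.21 in pig 9 against -0.58 to -0.22. The VEGFA change was -0.41 in pig 9 against 0.07 to 0.31. The median of the hypoxia-inducible factor targets was 0.12 in pig 8 against -0.06 to 0.00476. The median of the sarcomere and Z-disc list was -0.12 in pig 13 against -0.0065 to 0.0165; pig 13 also had the largest rise in the GAPDH 3 prime minus 5 prime difference (1.18), whose part was not tested.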

How the results depend on the processing

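The count of 3 probe sets past the threshold became 0 with no replicate block (646 at an unadjusted p under 0.05, limma). It was also 0 with the pig as a random replicate block (1379) and in an unmoderated test (1328). The ALAS2 change stayed at -1.42 in these fits, with an SE of 0.41, 0.29 and 0.13, against 0.11 in the main fit. The count became 5 with 1 probe set per named gene and 5 with a trend and robust moderation. With all 18 arrays it was 6 with a change for each set and 16 with 1 common change in 9 pigs. Leaving out 1 pig gave 2 to 11, the 11 without pig 8, of which 7 were higher in failure. Under centring, quantile normalization, both intensity filters, averaged probe sets, trend alone, the GAPDH covariate, rounding to 2 decimals and, added after the data were seen, without the probe sets named SscAffx, it stayed within 1.5 times of 3. ALAS2 lost its call only under no block, the random block and the unmoderated test; AHSP also lost it with trend and robust moderation (adjusted p = 0.0888), the covariate, and without pigs 6, 8, 11 or 12. HBM passed under 9 alternatives (adjusted p from 0.0208 to 0.0463) and FAM46C under 4 (0.0156 to 0.0460). GHRL changed sign, to 0.044, with 1 common change in 9 pigs. The difference between the sets of pigs had 0 calls under every alternative run. Among 328 list medians under alternatives, 1 moved by more than the pigs' SD, that of the red cell list, to -0.40 with averaged probe sets. A reversal was counted where the main unadjusted p was under 0.05. Signal near the floor limits HBE1, KLF1, MMP7 (mean 3.75), the second ATF4 probe set and the lymphocyte markers.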

Other observations

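House-keeping programmes showed little. Among 51 cytosolic ribosomal protein genes the median change was 0.02 and among 28 proteasome subunit genes -0.03, with pig 9 highest in both (0.12 and 0.17) and 0 past the threshold. Autophagy genes had a median of 0.02 that was above 0 in 6 of 6 pigs; GABARAPL1, a coat protein of the autophagosome, had 0.16 in 6 of 6. GADD45G, a growth arrest gene, had 0.40 with pig 8 alone lower (-0.72). Of 22 antioxidant genes 15 had a lower mean (median -0.03), among them the peroxidase gene GPX1 (-0.25) and the mitochondrial superoxide dismutase gene SOD2 (-0.21). Of 13 apoptosis genes 9 had a higher mean (median 0.03). Of 18 clock genes listed 6 were measured (median -0.02), with ARNTL at 0.19. In the adrenergic list 0 of 14 genes passed (median 0.00), with the regulator RGS2 at 0.27 and the receptor kinase gene GRK5 at -0.19. The phosphatase list, 20 genes with a median of -0.01, held both PTPN4 and PPP1R16B, and PPP1R12A was lower in 6 of 6 pigs (-0.18).

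Large changes in single animals, picked here after values were seen, were TNNI1, the slow skeletal troponin gene, at 2.04 in pig 11, CACNA2D1, a calcium channel subunit gene, at -1.83 in pig 6, and LPL, lipoprotein lipase, at -1.79 in pig 13. Without pig 8, second probe sets of CRYAB (2.09), SNX14 (0.66) and ZNF706 (1.21) passed, while the brightest probe sets of these genes gave 0.09, 0.10 and -0.04 in the 6 pigs.

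The deposited table gives 1473 of its 24123 probe sets (6.11%) with at most 2 decimals, and the other 22650 with up to 5. The 1473 are close to those whose paired t over the 9 pigs exceeds 2.31 in size, the limit for a p of 0.05: the other 22650 reach at most 2.31, with 0 above the limit, and 36 of the 1473 lie below it. The 20 probe sets with the smallest p in the 6 pigs are all among the 1473. They include those of ALAS2, AHSP, HBM, FAM46C, HBE1, FST and OAZ1 and the falling B2M probe set. Changes of at most 2 decimals in every pig are also found for the brightest probe sets of other genes named above. Among these are NEBL, PTPN4, PPP1R16B, PDK4, ANGPTL4, PLIN2, HSPH1, GNLY, PAPSS2, UAP1, EPDR1, UBE2QL1, PSMB8, IFIT3, TGFB3 and TAP1. The second probe sets of PDK4, ANGPTL4 and TGFB3 have more decimals. No source used here says how the values with at most 2 decimals were made. Rounding every value to 2 decimals left 3 calls, but that checks only the loss of decimals. Whether the 1473 were processed differently was not tested.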
